A study of Homo sapiens with 10 samples.

Results

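The gained H3K4me3 peaks are the regions that were called as H3K4me3-enriched in HEK293T cells with knockdown of CGGBP1 (KD) and that shared no base with any H3K4me3 peak of the control cells (CT). They numbered 15847 of the 81932 KD peaks, which is 19.3% of the list, and they were chosen by this comparison of positions, so that their absence from CT is their definition and not a result. The 66085 KD peaks that overlapped a CT peak are called kept, and the 10838 of 76814 CT peaks (14.1%) that overlapped no KD peak are called lost. All 15847 gained peaks could be described, of which 15463 lay on chromosomes 1 to 22, X and Y. Gene context is given for those only, and all other measures for the whole set.

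HEK293T is a human embryonic kidney cell line that carries the SV40 large T antigen. All cells were transduced with lentiviruses: CT cells with a non-targeting shRNA, KD cells with shRNA against several parts of the CGGBP1 open reading frame, and OE cells with a construct for overexpression of CGGBP1. CT and KD cells were both selected with puromycin at 10 µg/ml. H3K4me3 was measured by ChIP-seq with the antibody ab8580 in CT and KD, and CTCF with a mixture of antibodies SC-28198 and SC-271514 in CT, KD and OE, with 1 library per mark and condition. There was therefore no replicate, no test between conditions was possible, and the sensitivity of the CT and KD libraries cannot be told apart from a difference between the cells. The lists give positions only, without heights or read counts, so that the reads behind a peak are not known from them, and the read totals that the study states for its libraries were not used here. Percentages are given with exact Clopper-Pearson 95% intervals, which cover the counting error of peaks within these libraries only.

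H3K4me3, trimethylation of lysine 4 on histone H3, is written by SET1 and MLL complexes and marks the start sites of active and poised genes, above all those in unmethylated CpG-rich DNA. Weaker H3K4me3 also occurs at enhancers. CTCF is a zinc finger protein that binds a long GC-rich site, stops the extrusion of chromatin loops by cohesin and acts at insulators. CGGBP1 is a small DNA-binding protein first found on CGG triplet repeats, and the study asked how its level changes the binding of CTCF and the surrounding histone marks.

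The following sequences are examples of CTCF sites in gained peaks with a CTCF peak in KD, chosen because the site lies inside that CTCF peak. Many such gained peaks hold no site, and in those near SPRY4 and LINC00555 the best match was outside the CTCF peak. They were read from hg38 on the forward strand, and each is a stretch of 1 gained peak without annotated UTR bases, with the best match to the CTCF matrix in capitals. The first 4 lie at start sites of protein-coding genes that had no H3K4me3 peak near any start site in CT. At PKHD1, PCDHB3 and WFDC10A the site lay inside a CTCF peak of KD and of OE and CT had no CTCF peak at the gained region, whereas at DMBT1 it lay inside a CTCF peak of CT, KD and OE. The DMBT1 match is on the reverse strand and the other 3 on the forward strand.
PKHD1, chr6:52087800-52087959: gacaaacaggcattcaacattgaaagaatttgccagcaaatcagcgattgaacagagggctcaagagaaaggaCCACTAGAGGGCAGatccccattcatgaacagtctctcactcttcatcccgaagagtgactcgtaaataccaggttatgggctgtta
DMBT1, chr10:122565790-122565949: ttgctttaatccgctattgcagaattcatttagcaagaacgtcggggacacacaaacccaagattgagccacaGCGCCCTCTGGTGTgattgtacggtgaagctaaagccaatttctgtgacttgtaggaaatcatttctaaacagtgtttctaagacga
PCDHB3, chr5:141100325-141100472: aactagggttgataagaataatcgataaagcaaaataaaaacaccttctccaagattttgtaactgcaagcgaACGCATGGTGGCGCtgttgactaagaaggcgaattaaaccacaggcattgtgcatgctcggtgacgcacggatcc
WFDC10A, chr20:45629617-45629738: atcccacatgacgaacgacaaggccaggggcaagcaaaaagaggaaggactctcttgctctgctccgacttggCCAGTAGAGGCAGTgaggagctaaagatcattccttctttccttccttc

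The scores of these sites were 21.32 bits at PKHD1, 19.2 at DMBT1, 10.3 at PCDHB3 and 8.65 at WFDC10A, against a threshold of 8.3 bits. The PKHD1 and DMBT1 matches were thus far above the threshold, and the WFDC10A match was close to it. The next 3 sequences come from introns, and were taken from the widest gained peaks with a CTCF peak in KD and none in CT. Their sites scored 18.97 bits in CCDC85C, 14.3 in CACNB2 and 14.2 in SLC22A6. Each lay inside a CTCF peak of KD and of OE. The CCDC85C match is on the forward strand, and the matches in CACNB2 and SLC22A6 are on the reverse strand.
CCDC85C, chr14:99524979-99525138: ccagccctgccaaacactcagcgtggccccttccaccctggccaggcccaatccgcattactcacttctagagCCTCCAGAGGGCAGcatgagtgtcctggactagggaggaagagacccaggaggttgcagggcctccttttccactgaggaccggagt
CACNB2, chr10:18312858-18313017: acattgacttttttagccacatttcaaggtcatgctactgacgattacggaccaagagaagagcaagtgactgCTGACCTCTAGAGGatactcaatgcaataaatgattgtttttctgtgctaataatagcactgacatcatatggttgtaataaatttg
SLC22A6, chr11:62975233-62975392: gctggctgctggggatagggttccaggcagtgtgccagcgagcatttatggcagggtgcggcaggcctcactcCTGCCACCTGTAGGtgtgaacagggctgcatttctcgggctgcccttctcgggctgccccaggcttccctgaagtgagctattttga

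Because CGGBP1 was named for its binding to CGG repeats, the gained peaks with most runs of 4 CGG triplets are shown as well, at the start sites of STUM and GSG1L, with the run in capitals.
STUM, chr1:226548905-226549022: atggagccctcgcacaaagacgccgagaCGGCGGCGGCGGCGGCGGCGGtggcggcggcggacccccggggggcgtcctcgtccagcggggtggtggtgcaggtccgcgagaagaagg
GSG1L, chr16:28063135-28063294: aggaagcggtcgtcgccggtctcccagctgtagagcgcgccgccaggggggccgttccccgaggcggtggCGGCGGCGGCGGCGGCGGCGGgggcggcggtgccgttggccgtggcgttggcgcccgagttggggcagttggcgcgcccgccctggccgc

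The rule chose narrow peaks. The gained peaks had a median width of 257 bp (quartiles 208 and 344), the kept KD peaks one of 641 bp, and the lost CT peaks one of 261 bp. The smallest width in the KD list, 187 bp, was found for 1556 gained peaks (9.82%, 9.36 to 10.29) and for 0.911% of the kept peaks. Of the KD peaks under 200 bp, 66.5% were gained, and of those of 1000 bp and more 0.0298% or 5 peaks. The gained peaks covered 4.68 Mb, compared with 50.4 Mb for the kept peaks. At the edge of the rule, 8 gained peaks touched a CT peak without a shared base and 54 lay within 10 bp of one, while 5 kept peaks shared a single base with CT and 70 shared 10 or fewer.

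Introns held the largest class of the gained peaks. Of those on annotated chromosomes, 7623 (49.3%, 48.5 to 50.1) were intronic, 767 (4.96%) overlapped an exon outside promoters and 5077 (32.8%, 32.1 to 33.6) were outside genes and promoters. Within 1000 bp of an annotated start site, which is called a promoter here, lay 1996 gained peaks (12.9%, 12.4 to 13.4), compared with 42.7% (42.3 to 43.1) of the kept and 9.40% (8.85 to 9.97) of the lost peaks. A start site fell inside 565 gained peaks (3.65%) and inside 25.9% of the kept peaks. No gene at all was overlapped by 34.6% of the gained (33.9 to 35.4), 28.1% of the kept and 35.1% of the lost peaks, with overlapping intervals of gained and lost peaks.

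Since kept peaks were wider, the comparison was repeated with peaks of 200 to under 300 bp. In this class 13.6% of the gained peaks were at promoters (12.8 to 14.5), 20.6% of the kept (19.8 to 21.5) and 10.0% of the lost peaks (9.21 to 10.9), so the order held with a smaller gap. The order of peaks without a gene turned round, with 34.9% of the gained (33.8 to 36.0) and 42.5% of the kept peaks (41.5 to 43.6). Among the kept peaks of this width 10.7% overlapped a peak of the input library, which is sequenced chromatin without immunoprecipitation, and among the gained peaks 0.902% did. Without the peaks that overlap an input peak, promoters took 13.8% of the gained (12.95 to 14.6) and 22.9% of the kept peaks (22.005 to 23.9), and peaks without a gene 34.4% (33.3 to 35.6) and 38.03% (36.9 to 39.1), so both orders held and the second gap was smaller.

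**Figure D1:**
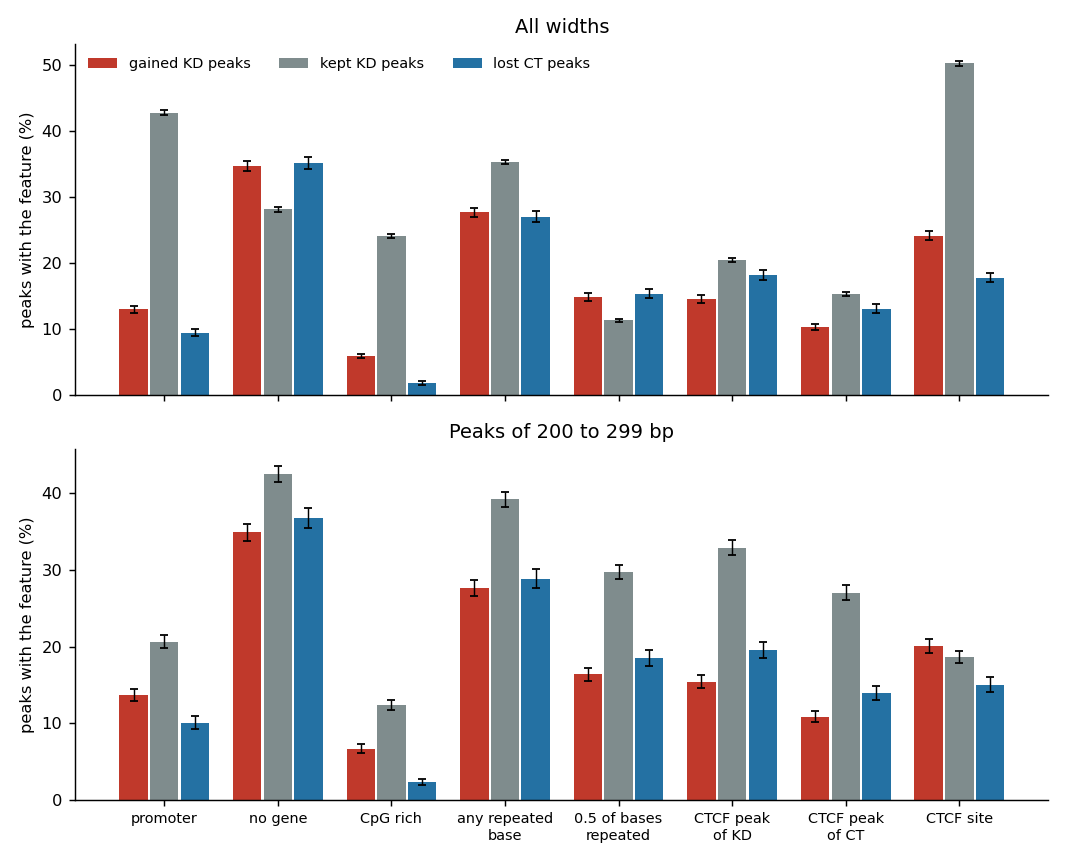
Percent of gained KD peaks (red), kept KD peaks (grey) and lost CT peaks (blue) with each feature, for peaks of all widths (top) and for peaks of 200 to under 300 bp (bottom), with exact 95% intervals as error bars. Promoter and CpG-rich peaks were rarer among gained than among kept peaks and more frequent than among lost peaks in both panels, while the order of gained and kept peaks turned round between the panels for peaks without a gene and for peaks with at least 0.5 of their bases repeated. For CTCF sites the intervals of gained and kept peaks overlapped in the bottom panel (19.1 to 20.96% and 17.8 to 19.4%).

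The base composition set the gained apart from the lost peaks, although their widths were alike. The median GC content was 45.9% in gained peaks (quartiles 40.8 and 52.4), 40.2% in lost peaks (36.8 and 45.1) and 49.1% in kept KD peaks (41.8 and 56.8). Gained peaks had the higher median than lost peaks on 23 of 23 chromosomes tested (1 to 22 and X). The same order was seen at promoters, with 53.1% in gained and 44.3% in lost peaks, and outside them, with 45.1% and 39.9%. CpG-rich peaks, defined by a GC content of at least 50% and an observed to expected CpG ratio of at least 0.6 as in CpG islands, made up 928 of the gained peaks (5.86%, 5.50 to 6.23), 193 of the lost peaks (1.78%, 1.54 to 2.05) and 24.02% of the kept peaks. With peaks of 200 to under 300 bp, the shares were 6.63% of the gained, 2.27% of the lost and 12.4% of the kept peaks.

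Along the GC scale, the share of CT peaks that were lost fell from 41.1% (39.5 to 42.6) below 35% GC to 1.76% (1.38 to 2.21) at 65% GC and above. The share of KD peaks that were gained lay between 21.5% and 24.6% in the bins below 50% GC, was lowest with 8.81% (8.15 to 9.51) from 60 to 65% GC and 11.9% (11.01 to 12.9) above. At 200 to under 300 bp the gained share peaked with 55.5% from 45 to 50% GC, and the lost share fell from 62.4% to 4.96%. A smaller GC difference was seen in the CTCF lists, where peaks of KD and not CT had a median of 41.1% and peaks of CT and not KD one of 39.1%. In H3K9me3 both medians were 39.1%, and in H3K27me3 the median of KD and not CT was the lower one (39.0% against 40%). GC content thus moved with gain and loss, and with 1 library each a difference between the libraries and one between the cells cannot be told apart.

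**Figure D2:**
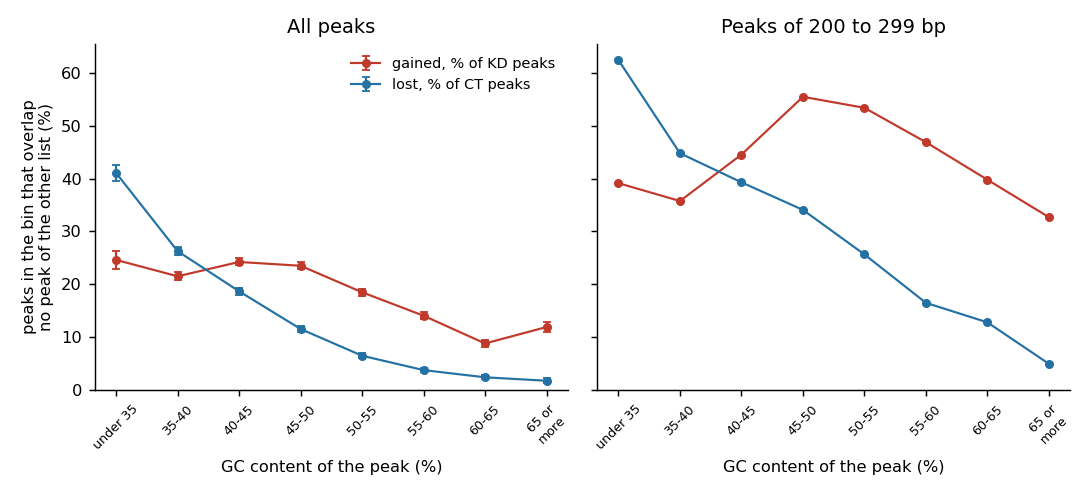
Percent of KD peaks that were gained (red) and of CT peaks that were lost (blue) in bins of the GC content of the peak, for all peaks with exact 95% intervals (left) and for peaks of 200 to under 300 bp (right). The lost share fell in every step from AT-rich to GC-rich peaks, and the lines crossed between the bins of 35 to 40% and 40 to 45% GC.

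Repeats were measured by words of 24 bases: bases covered by a word with 10 or more copies in hg38 are called repeated, and they make up 23.8% of the known genome. Of all bases in gained peaks 14.3% were repeated, compared with 9.83% in kept and 14.1% in lost peaks. Peaks made up of repeated bases from end to end were rarer among the gained peaks (5.44%, 5.09 to 5.80) than among the lost peaks (8.47%, 7.95 to 9.01). At least 1 repeated base was found in 4380 gained peaks (27.6%, 26.9 to 28.3), in 35.3% of the kept and in 26.96% (26.1 to 27.8) of the lost peaks. In equal windows of 300 bp the order of gained and kept peaks turned round, with 28.2% of the gained (27.5 to 28.9), 22.97% of the kept (22.7 to 23.3) and 27.2% of the lost peaks, compared with 46.2% of 300-base tiles of chromosomes 1 to 22 and X. Gained peaks in which at least 0.5 of the bases were repeated numbered 2341 (14.8%, 14.2 to 15.3), and the shares were 11.3% of the kept and 15.3% (14.6 to 15.96) of the lost peaks. In windows of 300 bp such a content was found for 14.8% of the gained and 12.1% of the kept peaks. Among peaks of 200 to under 300 bp, 16.4% of the gained (15.5 to 17.2) and 29.7% of the kept peaks (28.8 to 30.7) had such a repeat content, and without peaks that overlap an input peak 15.7% (14.8 to 16.5) and 21.5% (20.6 to 22.4) did. Alu elements derive from the 7SL RNA of the signal recognition particle. A match to 7SL was present in 331 gained peaks (2.09%, 1.87 to 2.32), 7.26% of the kept and 1.76% of the lost peaks. In equal windows of 300 bp around the centres the shares were 2.35% of the gained and 2.59% of the kept peaks, with overlapping intervals (2.12 to 2.60 and 2.47 to 2.72).

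Most gained peaks had a CT peak in their neighbourhood. The median distance to the next CT peak was 8107 bp (quartiles 1584 and 21288), and 8809 gained peaks (55.6%, 54.8 to 56.4) had one within 10 kb and 3427 (21.6%) within 1 kb. This is a description, since the rule used the same lists. For lost peaks, the median distance to the next KD peak was 7930 bp, and 55.9% (54.97 to 56.9) had one within 10 kb, so that the distances of gained and lost peaks were alike. The nearest CT peak of the gained peaks within 1 kb was in turn kept in KD in 73.3% of cases, lay at a promoter in 29.5% and had a median width of 408 bp. It was kept in 80.2% of cases for gained peaks from 1 to under 10 kb and in 83.8% for those farther away. For comparison, 65976 of all 76814 CT peaks were kept. On chromosomes 1 to 22, X and Y, promoters held 43.1% of the kept and 9.40% of the lost CT peaks. A CT peak within 1 kb on both sides was found for 363 gained peaks.

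**Figure D3:**
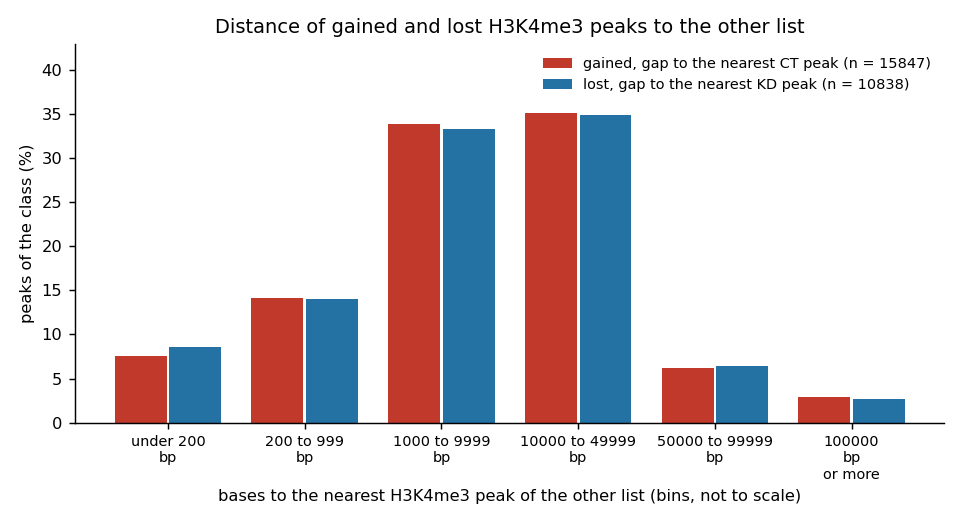
Percent of gained KD peaks (red) by the number of bases to the nearest CT peak, and of lost CT peaks (blue) by the number of bases to the nearest KD peak. The bars of both classes are close in every bin, and the tallest are those from 10 kb to under 50 kb with 35.2% of the gained and 34.9% of the lost peaks.

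The context of the gained peaks changed with this distance. From 200 bp to under 1 kb, 28.9% were at promoters and 17.2% were CpG rich, compared with 9.66% and 3.18% from 1 to under 10 kb and 5.39% and 5.86% at 100 kb or more. CTCF peaks of KD were overlapped by 5.76% of the gained peaks from 200 bp to under 1 kb, by 15.9% from 1 to under 10 kb and by 17.7% from 10 to under 50 kb. The share with at least 0.5 of the bases repeated was 13.1% from 200 bp to under 1 kb and 33.6% among the 461 peaks at 100 kb or more, of which 56.2% overlapped no gene. The share of lost peaks at promoters was also higher near a peak of the other list, with 16.8% from 200 bp to under 1 kb and 7.87% from 1 to under 10 kb. CTCF peaks of KD were overlapped by 9.157% and 20.51% of the lost peaks in these bins, and by 21.17% from 10 to under 50 kb. CpG-rich lost peaks took 3.953% and 0.94% in the first bins, and 4.167% at 100 kb or more. At that distance 56.34% of the lost peaks overlapped no gene. Apart from CpG-rich peaks at 100 kb or more, these trends were thus not particular to gained peaks. The greatest distance from CT, 1158175 bp, was measured for a gained peak of 187 bp on chromosome 8 (35235567 to 35235753), 12 bp from a start site of UNC5D, a netrin receptor of neurons. The next 2 in distance also lay in UNC5D, at 867967 and 859937 bp. The former overlapped a start site of the processed pseudogene LSM12P1, and 96.0% of the bases of the latter were repeated.

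CTCF peaks were found at a minority of the gained peaks, and at more of them in KD than in CT. A CTCF peak of KD was overlapped by 2295 gained peaks (14.5%, 13.9 to 15.04), one of CT by 1616 (10.2%, 9.73 to 10.7) and one of OE by 2216 (13.98%, 13.5 to 14.5). In detail, 1345 gained peaks had CTCF in CT and KD, 950 (5.99%, 5.63 to 6.38) in KD and not CT, 271 (1.71%, 1.51 to 1.92) in CT and not KD, and 13281 (83.8%) in neither. Kept peaks overlapped CTCF of KD in 20.4% and of CT in 15.2% of cases, and lost peaks in 18.1% and 13.1%. In windows of 300 bp around the centres, CTCF of KD was found at 14.6% (14.1 to 15.2) of the gained, 17.1% (16.8 to 17.4) of the kept and 18.2% (17.5 to 18.98) of the lost peaks. The gained peaks thus had fewer CTCF peaks than both other classes in both libraries, also at equal width. In the same windows, CTCF in KD and not CT was found at 5.95% (5.59 to 6.33) of the gained and 5.72% (5.55 to 5.90) of the kept peaks. These intervals overlap, and the share of the lost peaks was 7.10%. In peaks of 200 to under 300 bp, the intervals of gained and kept peaks were apart. The shares were 6.298% (5.748 to 6.883) of the gained and 8.783% (8.204 to 9.389) of the kept peaks. Without peaks that overlap an input peak they were 6.187% and 7.99%. Over whole peaks the kept share was 7.12%, against 5.99% of the gained peaks. Gained peaks thus had fewer or about as many, depending on the measure.

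The excess of CTCF in KD over CT was alike at gained, kept and lost peaks. The number with CTCF in KD was 1.42 times that in CT for gained, 1.34 times for kept and 1.39 times for lost peaks, while the whole CTCF lists with 47632 and 42978 peaks had a ratio of 1.11. Among the peaks with CTCF in one of the conditions, KD accounted for 77.8% (75.4 to 80.1) at gained, 78.4% (77.4 to 79.5) at kept and 76.9% (74.2 to 79.4) at lost peaks, with overlapping intervals, and for 54.9% (54.5 to 55.4) of all CTCF peaks called in one of the conditions. Of the 950 gained peaks with CTCF in KD and not CT, 649 (68.3%, 65.3 to 71.3) also had a CTCF peak in OE, compared with 60.8% (59.4 to 62.2) at kept, 68.7% at lost peaks and 41.5% of all CTCF peaks of KD and not CT. Of the 271 with CTCF in CT and not KD, 85 (31.4%, 25.9 to 37.3) had one in OE.

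CTCF peaks lay on the centre of the gained peaks. The centre itself was inside a CTCF peak of KD for 10.35% and of CT for 7.12% of the gained peaks, while positions 1000 bp upstream were covered for 0.654% and 0.589%. At kept peaks, the centre was covered for 12.6% in KD and 9.26% in CT, and at lost peaks for 14.2% and 9.90%. Within 10 kb, 6447 gained peaks (40.7%) had a CTCF peak of KD and 5685 (35.9%) one of CT. Of all CTCF peaks in KD, 2287 (4.80%) lay at a gained and 28.4% at a kept H3K4me3 peak. An input peak was overlapped by 113 gained peaks (0.713%), and by 2.63% (1.71 to 3.86) of those with CTCF in KD and not CT.

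**Figure D4:**
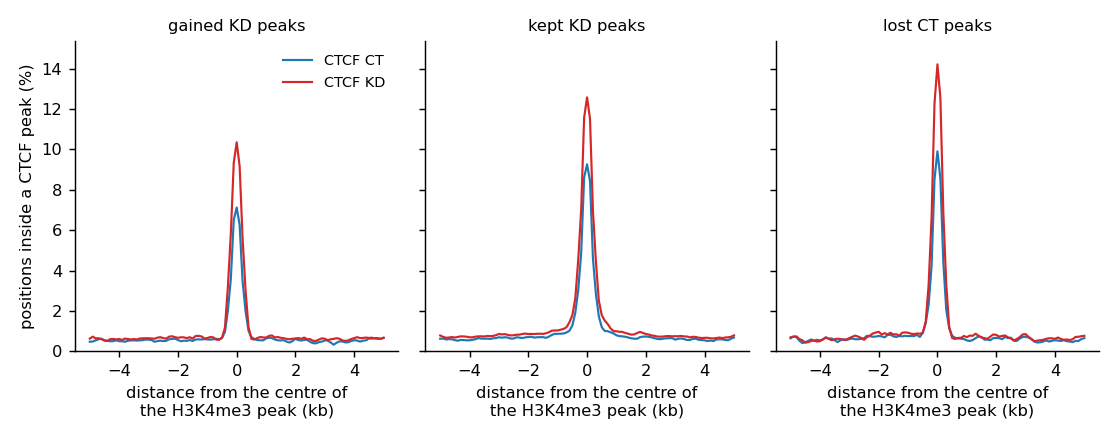
Percent of gained KD peaks, kept KD peaks and lost CT peaks on chromosomes 1 to 22 and X for which the position at a given distance from the peak centre (in kb, forward strand) lies inside a CTCF peak of CT (blue) or KD (red). The curves peak at the centre with 10.35% for KD and 7.12% for CT at gained peaks and have fallen to 0.680% and 0.634% at 1 kb downstream, and KD is above CT at the centre in all 3 classes.

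The CTCF matrix, learned from repeat-masked CTCF peaks common to CT, KD and OE, matched 3813 gained peaks (24.1%, 23.4 to 24.7) at p below 0.0001. In windows of 300 bp the share was 25.8% (25.1 to 26.5) of the gained, 30.2% (29.8 to 30.5) of the kept and 18.95% (18.2 to 19.7) of the lost peaks, compared with 14.3% of all 300-base tiles of chromosomes 1 to 22 and X and 37.1% of the RefSeq promoters of this length. The matrix is GC rich, as were the gained against the lost peaks, and the part of GC content in this order was not tested. A site was held by 42.6% (39.5 to 45.8) of the gained peaks with CTCF in KD and not CT and by 47.4% (44.7 to 50.1) with CTCF in both, compared with 20.6% (19.9 to 21.3) with CTCF in neither. With CTCF in CT and not KD the share was 15.1% (11.1 to 19.96), which is no higher than with CTCF in neither. Those peaks were narrower than the ones with CTCF in neither (medians 211 and 261 bp) and lower in GC (41.7% and 45.9%). The gained peaks with CTCF in both can hold CTCF peaks from which the matrix was learned. What these differences add to the site shares was not tested. The 271 gained peaks with CTCF in CT and not KD were also the most repeated, with at least 0.5 of the bases repeated in 57.2% (51.1 to 63.2) against 17.5% (15.1 to 20.04) of the 950 with CTCF in KD and not CT. At lost peaks the corresponding values were 57.8% and 33.9%.

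Among the 10 widest gained peaks with CTCF in KD and not CT, the widest had 931 bp and lay in an intron of CCDC85C on chromosome 14 (99524343 to 99525273), where the KD CTCF peak spanned 99524797 to 99525181 and the nearest CT CTCF peak was 5587 bp away. This gained peak was only 535 bp from the next H3K4me3 peak of CT and 1398 bp from a start site of CCDC85C. The second, with 825 bp, was in an intron of CACNB2, a subunit of voltage-gated calcium channels, on chromosome 10 (18312511 to 18313335), 20515 bp from the next H3K4me3 peak of CT and 27628 bp from the next CTCF peak of CT. The ninth lay in an intron of SLC22A6, the renal organic anion transporter OAT1, on chromosome 11 (62974879 to 62975600), 41855 bp from H3K4me3 and 48516 bp from CTCF in CT. The others were at or near a pseudogene on chromosome 6, B3GNT7, RNU6-745P, LINC02205, MANSC4, SPRY4 and LINC00555. Of the 10, 4 also overlapped a CTCF peak of OE, namely those at CCDC85C, CACNB2, RNU6-745P and SLC22A6.

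In the opposite direction, the 5 widest gained peaks with CTCF in CT and not KD were 628 to 908 bp wide. The widest lay in an intron of PELI2, a ubiquitin ligase of innate immune signalling, on chromosome 14 (56160099 to 56161006), where the CTCF peak of CT spanned 56160121 to 56160327 and the nearest of KD was 130198 bp away. The others were near the lncRNA genes ENSG00000237356 and ENSG00000227880, in ASTN2 and in LNC-LBCS. Only the third of the 5 held a match to the CTCF matrix.

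The widest gained peaks lay mostly outside promoters and CTCF peaks, as did the gained peaks as a whole. Of all gained peaks 12.9% were at promoters and 83.8% had CTCF in neither CT nor KD. The 10 widest measured 956 to 1092 bp, and 9 of them overlapped no CTCF peak of CT or KD. The widest lay in an intron of EDAR, the ectodysplasin receptor, on chromosome 2 (108957192 to 108958283), 10299 bp from the next CT peak. The second was intergenic, 9563 bp from the start site of the phosphatase gene DUSP5, on chromosome 10 (110512310 to 110513369). The exception with CTCF, on chromosome 12 (12008575 to 12009568), was an intergenic peak near BCL2L14 with CTCF in CT, KD and OE. A pair of the 10 were at promoters, namely KRT8, a keratin of simple epithelia, with a start site 574 bp away, and MYLK, the myosin light chain kinase, with a start site 13 bp away. The remaining ones lay in TPST1, NUAK1 and KCNMA1 and near ENSG00000277901 and TTC30B. None of the 10 was CpG rich, since their observed to expected ratios were 0.0705 to 0.301.

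Start sites inside a gained peak were found for 367 of 19970 protein-coding genes (1.84%), whereas 11848 (59.3%) had a CT peak at a start site. For 181 of the 367 no start site had a CT peak, and for 60 genes (0.3%) there was no CT peak within 5000 bp of any start site. In the opposite direction, 137 genes had a start site in a lost peak, and 18 had no KD peak within 5000 bp. The 60 genes shared 59 peaks, with a median width of 307.5 bp over the genes, and for 8 of the genes the peak was CpG rich. The widest were at GABRE, which encodes the epsilon subunit of the GABA type A receptor (817 bp, chromosome X, 151973870 to 151974686), and at SLC45A1, a sugar transporter (805 bp, chromosome 1, 8317774 to 8318578), and both were CpG rich with ratios of 0.714 and 0.796. ENSG00000243696, the zinc finger gene ZNF735, VWA5B1 and SSTR5, a somatostatin receptor, followed with 745, 706, 636 and 598 bp. The next ones were LRRC52, ZNF280A, WFDC1, the protocadherin PCDHB1, MAGEB18, DMBT1, GLIPR1, GFAP, ZNF85, CRX, PCDHB3, STOML3, WFDC10A and PKHD1, with 571 to 407 bp. GFAP is the intermediate filament of astrocytes, CRX a photoreceptor transcription factor and PKHD1 the gene of recessive polycystic kidney disease. No RNA was analysed here, and a peak at a start site does not show that the gene was transcribed.

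CTCF peaks of KD were present at the new start sites of 11 of the 60 genes and CTCF peaks of CT at 4, and 7 had CTCF in KD and not CT whereas 0 had it in CT and not KD. These small counts stand beside 14.5% of all gained peaks with CTCF in KD, 10.2% in CT, 5.99% in KD and not CT and 1.71% in CT and not KD. At PKHD1 on chromosome 6 the gained peak spanned 52087587 to 52087993 and the CTCF peak 52087734 to 52088014, with 22429 bp to the nearest CTCF peak of CT. At WFDC10A, a whey acidic protein-type protease inhibitor gene on chromosome 20, they spanned 45629549 to 45629969 and 45629585 to 45629817, and at PCDHB3 on chromosome 5 they spanned 141100247 to 141100694 and 141100250 to 141100502. At DMBT1 on chromosome 10 (122565608 to 122566110) CTCF was present in CT, KD and OE.

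Gene families differed in the number of members with a gained peak at a start site, to be read against 1.84% of all protein-coding genes. Of 39 HOX genes, the homeobox genes that pattern the body axis, 5 had one, and of 65 protocadherin genes, which encode adhesion proteins of neurons and of which the clustered ones are known targets of CTCF, 6 did. Of 508 ZNF genes 7 did, of 55 keratin genes 1 and of 30 genes of kidney development 1. A gained peak was found at none of the listed genes, namely 19 of CTCF and cohesin, 22 heat shock, 32 cancer-testis, 400 olfactory receptor, 88 histone and 84 cytosolic ribosomal protein genes. The cancer-testis list is a selection, and MAGEB18 and CT45A8, which are not on it, had a gained peak at a start site. A CT peak was already present at a start site of 82 of the ribosomal protein genes and of 8 of the olfactory receptor genes. The lists of H3K4 methylation, heterochromatin, growth control, neuronal, interferon-stimulated and other cell type genes had 1, 2, 1, 1, 1 and 1 members with a gained peak, namely KMT2C, ATF7IP and TET2, CDKN1C, STMN2, OAS1 and GFAP. Of these, ATF7IP, TET2 and CDKN1C already had a CT peak at a start site. The gained peaks at KMT2C and STMN2 lay 278 and 934 bp from a CT peak, and those at OAS1 and GFAP 31136 and 10807 bp. These counts are small and carry no test.

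Of the 39 HOX genes 16 had a CT peak at a start site, and none of the 5 with a gained peak was more than 5000 bp from H3K4me3 of CT. The one at HOXA7 measured 324 bp, 2320 bp from the next CT peak, and the one at HOXC6 measured 230 bp, 3455 bp away. At HOXD11, which acts in limb and kidney, the distance was 1006 bp, and at HOXB8 and HOXC13 it was 306 and 207 bp. No CTCF peak of CT or KD was overlapped by any of the 5. Protocadherin genes were different in that 5 of the 6 had no CT peak within 5000 bp of a start site, and in that CTCF peaks of KD lay at PCDHB3, PCDHGA9 and PCDHGA12. At PCDHGA12 (chromosome 5, 141430514 to 141430766) CTCF was called in CT and KD, and at PCDHGA9 (141402763 to 141402949) in KD, with the nearest CTCF peak of CT 27448 bp away. At PCDHGB2 (141360042 to 141360345) the nearest CTCF peaks of CT and KD were 68 and 10 bp from the gained peak. The remaining ones, at PCDHB1 and PCDHGA5, had CTCF peaks at distances of 9808 and 4148 bp in KD.

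Runs of 4 CGG triplets on either strand were rare, with 25 gained peaks (0.158%, 0.102 to 0.233), 674 kept peaks (1.02%) and 1 lost peak (0.00923%). In windows of 300 bp the shares were 0.271% (0.196 to 0.365) of the gained, 0.357% (0.313 to 0.406) of the kept and 0.0369% (0.0101 to 0.0945) of the lost peaks, compared with 2.22% of RefSeq promoters and 0.0320% of genome tiles. The 3 gained peaks with most overlapping matches to such a run lay at the start sites of STUM on chromosome 1 (226548829 to 226549437), HECTD4, a ubiquitin ligase gene, on chromosome 12 (112381914 to 112382179) and GSG1L, an auxiliary subunit of AMPA receptors, on chromosome 16 (28063018 to 28063471). All 3 were between 145 and 378 bp from a CT peak and had no CTCF peak of CT or KD.

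Some chromosomes and regions held more gained peaks than others. The gained share of the KD peaks was lowest on chromosome 19 with 12.8% (11.6 to 14.02) and highest on chromosome 13 with 27.3% (25.7 to 29.1), followed by chromosome 18 with 24.3% (22.3 to 26.5). The gained share exceeded the lost share on 23 of 23 chromosomes. On each of them the KD list was also longer than the CT list. Since kept peaks numbered 66085 in KD and 65976 in CT, this order largely restates the lengths of the lists. Chromosomes 13 and 18 had also high lost shares of 18.3% and 17.4%, and chromosome 19 the lowest with 7.62%. The gained peaks of chromosome 13 had the lowest median GC content of all chromosomes, 42.4%, and those of chromosome 19 the highest, 53.7%.

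**Figure D5:**
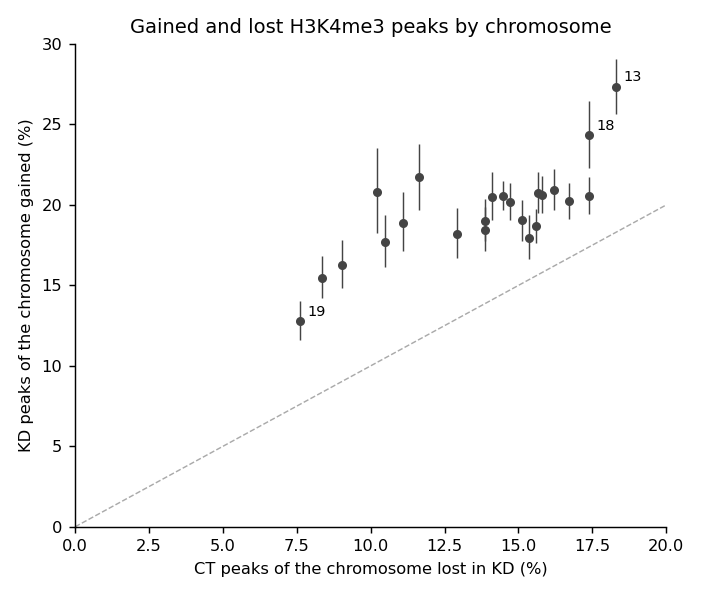
Percent of the KD peaks of each chromosome that were gained, with exact 95% intervals, against the percent of its CT peaks that were lost, for chromosomes 1 to 22 and X (chromosomes 13, 18 and 19 are labelled), with the line of equal shares dashed. All 23 points lie above the line, with a KD list longer than the CT list on each chromosome, and chromosome 13 stands highest with 27.3% gained and 18.3% lost.

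In windows of 1 Mb, the median number of gained peaks was 4 and the highest 31, at 67000001 to 68000000 of chromosome 13, next to 51 kept and 7 lost peaks. Of the 1814 windows with at least 20 KD peaks, the median gained share was 19.05% and 44 were over 40%, of which 14 lay on chromosome 13 and 5 on chromosome 7. On chromosome 13, a stretch from 53000001 to 74000000, chosen after its values were seen, had 249 gained of 625 KD peaks (39.8%, 36.0 to 43.8) and 131 lost of 501 CT peaks (26.1%). Before it the gained share was 17.5% (15.04 to 20.1) and after it 28.4% (25.7 to 31.1). The stretch held 290 CTCF peaks of CT and 245 of KD, and the part of the chromosome after it also had fewer in KD, with 532 in CT and 467 in KD. On chromosome 7, 63000001 to 66000000, also chosen after its values were seen and including ZNF735, had 79 gained of 202 KD peaks (39.1%, 32.3 to 46.2), 15.8% of the CT peaks were lost, and CTCF peaks numbered 51 in CT and 61 in KD.

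The 10 genes with the highest numbers of gained peaks were 668 to 1553 kb long. AUTS2, a neurodevelopmental gene of 1195 kb on chromosome 7, held 30 of them beside 92 kept and 9 lost peaks, with 29 CTCF peaks in KD and 17 in CT. On chromosome 13, PCDH9, a protocadherin gene outside the clusters, held 25, and the glypican genes GPC5 and GPC6 held 23 and 20. In GPC5 CTCF peaks numbered 21 in KD and 34 in CT, and in GPC6 10 and 21, so that the order of the CTCF lists differed between these genes and AUTS2. LINC02240 held 18, CALN1 and TENM4 16 each, and ENSG00000285708, PDE4D and ROBO1 15 each. Relative to their own KD peaks, the gained share ranged from 21.7% in PDE4D to 66.7% in CALN1, where 16 gained stood beside 8 kept peaks.

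Silencing marks overlapped few H3K4me3 peaks of any class. H3K9me3 peaks, which mark silenced repeats, were overlapped by 407 gained peaks in CT (2.57%, 2.33 to 2.83) and by 456 in KD (2.88%, 2.62 to 3.15), with overlapping intervals. At lost peaks the shares were 4.78% in CT and 4.21% in KD, and at kept KD peaks 4.66% and 4.53%. H3K27me3 peaks, left by Polycomb, were overlapped by 455 gained peaks in CT (2.87%, 2.62 to 3.14) and 301 in KD (1.90%, 1.69 to 2.12). The shares were 6.48% and 3.87% of the lost peaks and 5.12% and 4.49% of the kept KD peaks. Kept peaks were wider, and these shares were not compared at equal width. The whole H3K27me3 lists had 6003 and 4804 peaks and the H3K9me3 lists 14546 and 8356, so that both lists were shorter in KD. The labels and the study's methods give the antibodies of these marks the other way round, so which list holds which mark is taken from the labels alone.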

How the data were processed

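The lists came from ChIP-seq of HEK293T cells on an Ion Torrent S5 sequencer, with 1 library per mark and condition. The authors mapped the reads with Bowtie2 to hg38 and called peaks with MACS2, and the peak lists were deposited as positions without heights, scores or counts, so that the reads behind a peak are not known from them. Read totals of the libraries that the study states were not used here. Versions of these tools are not given in the sources used here. Per the labels, the p-value thresholds of peak calling were 0.001 for H3K4me3, H3K9me3, H3K27me3 and input, 0.0025 for CTCF in CT and KD, and 0.005 for CTCF in OE, so that the OE list was called less strictly. The study's methods and the labels differ in these thresholds.

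Overlap means at least 1 shared bp. Starts in the lists were taken to count from 0, as in BED files, and are printed counting from 1, and if the lists already count from 1 each printed start is 1 bp too high. The cells behind the input library are not named in the labels. The members, gene lists and measures were chosen with earlier results of these data known. Genes came from GENCODE release 44, and repeats from 24-mers with at least 10 copies in hg38, since no repeat annotation was used here. Matches to 7SL were found with BLAST 2.17.0+. A CTCF matrix of 14 columns was learned from 12859 repeat-masked CTCF peaks shared by CT, KD and OE, and scored on both strands. CGG runs were searched as CGGCGGCGGCGG on both strands, and overlapping matches within a longer tract were counted separately. Sequence features were also counted in windows of 300 bp around peak centres and in 300-base tiles of the genome. Python 3.11.15, numpy 2.4.6, pandas 2.3.3, scipy 1.17.1 and numba 0.67.0 were used, and the scripts were tested on simulated data. With 1 library per condition no test was made between conditions.

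Regions were named by rule, on chromosomes 1 to 22 and X and without gained peaks that overlap an input peak: the 10 widest, the 10 widest with CTCF in KD and not CT, the 5 widest with CTCF in CT and not KD, the 5 farthest from a CT peak and the 3 with most CGG runs. Genes named were the 20 with the widest gained peak at a start site and no CT peak within 5000 bp of any start site, the 10 with most gained peaks, and members of the gene lists. RefSeq promoters served only as background for the motif shares. The sequence of 1 region is not reported here.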

Additional observations from a re-analysis of the deposited data

How the results depend on the processing

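The share of gained peaks with each feature depended on how peaks and features were defined. With a gap of at least 1000 bp to every CT peak, 9.11% were at promoters, 36.1% overlapped no gene, 28.6% held a repeated base, 16.8% and 11.7% overlapped CTCF of KD and CT, 43.3% had a CT peak within 10 kb and 3.12% were CpG rich. Among KD peaks at least as wide as the median, 891 were gained, of which 11.5% were at promoters, 30.4% held a repeated base, 9.76% and 6.73% overlapped CTCF of KD and CT, 47.4% had a CT peak within 10 kb and 2.58% were CpG rich. On chromosomes 1 to 22, X and Y, 26.9% held a repeated base. Promoters took 9.73% within 500 bp, 20.6% within 2500 bp and 8.43% for protein-coding genes. Repeated bases were found in 19.7% with 24-mers of at least 100 copies, in 14.8% where a repeat content of 0.5 or more was required and in 24.9% of the central 200 bp. CTCF lists from repeat-masked reads overlapped 8.61% in KD and 6.61% in CT, and 18.4% and 13.96% had a CTCF peak of KD and CT within 1000 bp. CTCF sites were found in 7.16% with the stricter threshold, in 18.06% of the central 200 bp and in 25.8% of the central 300 bp. For peaks of 200 to under 300 bp, a class added after seeing the data like the windows of 300 bp, the values were 13.6% at promoters, 6.63% CpG rich, 15.4% and 10.8% with CTCF of KD and CT and 20.02% with a site. These settings differ by construction in the peaks or bases counted. The other 25 values stayed within 1.5 times (counts) or within their interval (shares), and CTCF of KD exceeded CTCF of CT in each of the settings named here. Some of the 25 could not move, since promoter and gene shares were already limited to chromosomes 1 to 22, X and Y. Others could hardly move, since only 113 gained peaks overlapped an input peak. No replicate could be left out and no paired analysis was possible because each condition had 1 library, and without heights the lists do not show how far a gained peak was from the calling threshold.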
